A study of Homo sapiens with 6 samples.

Results

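The genes of cholesterol synthesis and of its control by the transcription factor SREBP2 were followed by RNA-seq in CFPAC-1, a human cell line established from pancreatic ductal adenocarcinoma. The set holds 27 genes, chosen by symbol from a pathway list with earlier results of these data known. It comprises 20 enzymes that lead from acetyl-CoA towards cholesterol or its isoprenoid side branch, 5 genes of sterol sensing and transcription, and 2 carriers of cholesterol. All 27 symbols were found, each in a single row, among the 59962 genes of the table, and all 27 were among the 16610 genes tested, which had at least 1 TPM (a transcript level scaled for length and to an equal total in every library) in at least 2 libraries. Cells carrying SULF2 sgRNA1, cells carrying SULF2 sgRNA3 and control cells carrying a guide named for the bacterial gene LACZ were profiled, with 2 libraries in each of the 3 groups. SULF2 makes a secreted enzyme that trims sulfate from heparan sulfate chains, and the labels call all 3 groups knockdowns in the same cell line. The sources used here do not say whether the guides act by cutting or by repression, nor whether each line is a single clone or a pool.

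Cholesterol is built in the cytosol and endoplasmic reticulum. The mevalonate arm makes isoprene units, which are joined into squalene, closed into the sterol lanosterol and trimmed to cholesterol. When sterols run low, the escort protein SCAP carries the precursor of SREBP2 to the Golgi, where proteases free its transcription factor domain. This then switches on nearly every gene of the route, while INSIG proteins hold SCAP back when sterols are plentiful. Tumour cells depend on the same system for membrane growth and for the isoprenoid anchors of RAS proteins.

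The targeted gene SULF2 (ENSG00000196562, chromosome 20, 47656348 to 47786616 on GRCh38) stood at 8.98 and 12.81 TPM with sgRNA1, 10.07 and 9.24 TPM with sgRNA3 and 25.69 and 22.52 TPM in LACZ. All 4 guide libraries lay below the control, with a log2 change of -1.09 for sgRNA1 (limma adjusted p = 0.0338) and of -1.23 for sgRNA3 (limma adjusted p = 0.0215). NCOA3 overlaps SULF2 on the opposite strand, at up to 20.07 TPM, and reads of the overlap may be shared. Leaving out any of the 6 libraries ended the sgRNA1 call, and leaving out any sgRNA3 or LACZ library ended the sgRNA3 call. Each library held 15563 to 15923 genes at a TPM of at least 1, with 10.3% to 11.2% of its TPM on the mitochondrial genome. All 8 markers of duct epithelium were present, with a summed level of 8025 to 8208 TPM with sgRNA1, 8637 to 8684 TPM with sgRNA3 and 9061 to 9234 TPM in LACZ. Of 5 fibroblast markers DCN was at 0 in 5 of the 6 libraries and only COL1A1 exceeded 2.1 TPM in any, at 57.42 and 55.51 TPM with sgRNA1, 39.01 and 35.08 TPM with sgRNA3 and 74.81 and 74.02 TPM in LACZ. The 4 leukocyte markers summed to 89.7 to 96.61 TPM with sgRNA1, 104.98 to 107.43 TPM with sgRNA3 and 86.49 to 87.77 TPM in LACZ, nearly all of it CD68, while PTPRC and CD3E stayed at or below 0.24 TPM and MS4A1 was at 0 throughout. The 3 endothelial markers summed to at most 4.7 TPM and the 3 hepatocyte markers to at most 1.2 TPM in every library. The part of these marker shifts in the results was not tested.

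Of the 27 cholesterol genes, 12 fell and 0 rose with sgRNA1 against LACZ, which is 44.4% of the set, where 4.31% of all tested genes fell and 1.69% rose. The genes that fell were HMGCS1, MVK, IDI1 and FDPS in the mevalonate arm, FDFT1, SQLE and LSS between squalene and lanosterol, CYP51A1, MSMO1 and DHCR7 after lanosterol, the sterol sensor INSIG1 and the sterol carrier STARD4. With sgRNA3, 3 genes fell and 0 rose, 11.1% of the set, where 5.25% of all tested genes fell and 3.84% rose. These were FDFT1, MSMO1 and SREBF2. FDFT1 and MSMO1 passed with both guides, 7.41% of the set, and 0 rose with both, where 2.90% of all tested genes fell with both guides and 1.15% rose with both. The comparisons share their LACZ libraries. The other 15 genes did not pass with sgRNA1, and 4 of them (EBP, SCAP, INSIG2 and PMVK) had log2 changes above 0. Of the 8 duct markers, 4 also fell with sgRNA1 (KRT18, KRT19, CDH1 and SOX9, with log2 changes of -0.34, -0.23, -0.33 and -0.48) and 3 with sgRNA3 (KRT18, KRT19 and SOX9), and 0 rose. The threshold throughout was a limma adjusted p under 0.05, adjusted over all genes tested. Under median-of-ratios scaling 11 of the 27 genes fell with sgRNA1 and 2 with sgRNA3, again with 0 higher, whereas over all genes the split moved to 610 higher and 578 lower with sgRNA1 (281 and 716 as deposited) and to 1020 higher and 806 lower with sgRNA3 (637 and 872 as deposited). Quantile normalization gave 442 higher and 560 lower genes with sgRNA1.

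The median log2 change of the 27 genes was -0.44 with sgRNA1 and -0.20 with sgRNA3, beside medians of -0.07 and -0.05 over all genes tested. Their summed level was 1252 and 1195 TPM with sgRNA1, 1419 and 1418 TPM with sgRNA3 and 1594 and 1606 TPM in LACZ. The sums put the 3 groups in separate ranges, with sgRNA1 at 74.7% to 78.2% and sgRNA3 at 88.6% to 88.7% of the LACZ mean. In bulk RNA, fewer cells with a transcript and fewer transcripts per cell cannot be told apart. For 21 of the 27 genes both sgRNA1 libraries lay below both LACZ libraries, as they did for 35.2% of all tested genes, and for 18 of the 27 both sgRNA3 libraries did, against 34.3% of all tested genes.

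**Figure D1:**
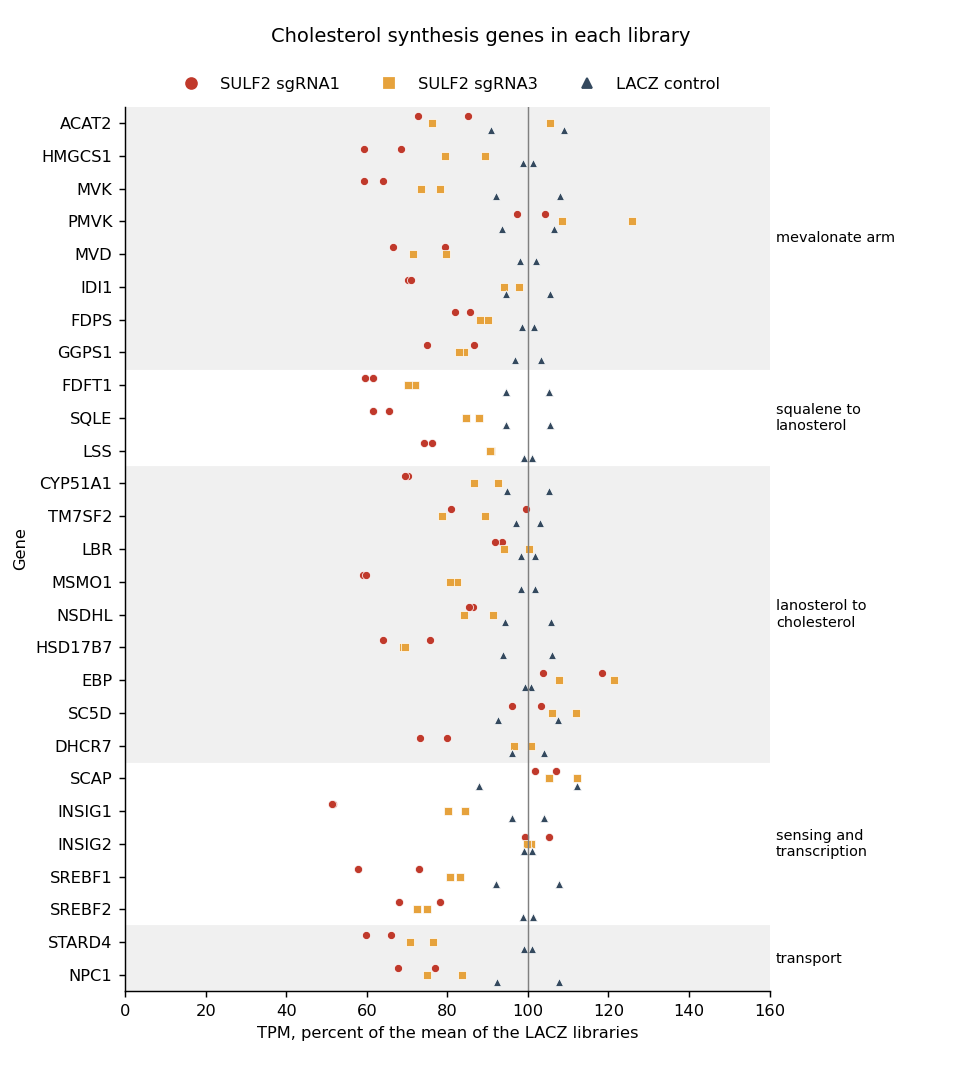
Level of each of the 27 genes in each library, in TPM as a percent of the mean of the LACZ libraries (x axis), with genes ordered by role down the y axis. Circles are the sgRNA1 libraries, squares the sgRNA3 libraries and triangles the LACZ libraries. INSIG1 with sgRNA1 lies farthest to the left, while INSIG2, SCAP, PMVK, EBP and SC5D lie around or above 100.

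Most of these calls were lost when a library was left out. Calls over all genes tested also became fewer in each of these fits, so such losses are not particular to the set. INSIG1 and MSMO1 kept their sgRNA1 calls with each library left out. FDFT1 lost its own without either sgRNA1 library (limma adjusted p = 0.0515 and 0.0686), and the other 9 sgRNA1 calls were lost with any of the 6 libraries left out. A fit of only the groups compared left 3 genes lower with sgRNA1 and 2 with sgRNA3, and a fit with no variance trend left 3 and 0. Of the 16610 genes tested, 248 and 472 were lower in the first of these fits and 233 and 377 in the second. In the main fit these numbered 716 and 872.

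In the mevalonate arm, 4 of 8 genes fell with sgRNA1 and 0 with sgRNA3, where 4.31% and 5.25% of all tested genes fell. HMGCS1 (ENSG00000112972, chromosome 5, 43289395 to 43313512), which makes HMG-CoA, had 45.1 and 39.06 TPM with sgRNA1, 58.88 and 52.44 TPM with sgRNA3 and 66.77 and 65.13 TPM in LACZ. The 3 groups did not overlap, sgRNA1 being lowest. The log2 changes were -0.64 for sgRNA1 (SE 0.095, limma adjusted p = 0.0267) and -0.24 for sgRNA3 (limma adjusted p = 0.174). IDI1, which turns the first isoprene unit into its reactive isomer, had 70.76 and 71.58 TPM with sgRNA1, 98.53 and 94.88 TPM with sgRNA3 and 106.28 and 95.45 TPM in LACZ. Both sgRNA1 libraries of IDI1 stood apart from the other 4, whose ranges overlapped. The log2 change of IDI1 was -0.50 with sgRNA1 (limma adjusted p = 0.0204) and -0.06 with sgRNA3, with a 95% interval of -0.22 to 0.11.

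MVK, the first of the kinases that phosphorylate mevalonate, was the least abundant of the 27 genes at 8.42 and 9.08 TPM with sgRNA1, 10.4 and 11.08 TPM with sgRNA3 and 13.05 and 15.3 TPM in LACZ. It fell with sgRNA1 (log2 change -0.64, limma adjusted p = 0.0473). FDPS, which makes farnesyl diphosphate and is the target of bisphosphonate drugs, was the most abundant at 190.89 and 182.23 TPM with sgRNA1, 200.78 and 196.46 TPM with sgRNA3 and 226.23 and 219.18 TPM in LACZ. Its libraries were ordered sgRNA1, sgRNA3, LACZ without overlap, and its decrease with sgRNA1 was the smallest that passed (log2 change -0.25, SE 0.043, limma adjusted p = 0.0366). MVD, the decarboxylase that forms the isoprene unit, stood at 42.69 and 35.75 TPM with sgRNA1, 42.85 and 38.42 TPM with sgRNA3 and 54.85 and 52.72 TPM in LACZ. All 4 guide libraries of MVD were below both LACZ libraries, yet neither comparison passed (limma adjusted p = 0.0744 with sgRNA1 and 0.0797 with sgRNA3).

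Other genes of the arm did not pass. The kinase PMVK, which follows MVK, had log2 changes of 0.01 with sgRNA1 (95% interval -0.25 to 0.27) and 0.22 with sgRNA3 (-0.04 to 0.49). ACAT2, the cytosolic thiolase that opens the route, spread widely within groups, with 34.65 and 47.99 TPM in the sgRNA3 libraries. GGPS1, which makes the geranylgeranyl anchor rather than sterol, had log2 changes of -0.30 with sgRNA1 and -0.25 with sgRNA3 (limma adjusted p = 0.134 and 0.166). ACAT2, MVK and GGPS1 overlap expressed genes on the opposite strand (TCP1 and SOD2, MMAB, and ARID4B), as SREBF1 and NPC1 do further on (RAI1 and RMC1). FDPS, IDI1, DHCR7, SREBF2 and STARD4 overlap antisense RNAs listed at up to 6.77 TPM. On the same strand lie VPS51 beside TM7SF2 (up to 108.43 TPM), AC000120.3 beside CYP51A1 (up to 17.2 TPM) and TBCE and the pseudogene AL391994.1 beside GGPS1 (up to 14.12 and 4.04 TPM). Library strandedness is not stated in the sources used here, so reads of such partners cannot be told apart. FDPS has processed copies in the genome, listed at up to 1.74 TPM, which may take some of its reads.

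All 3 enzymes between farnesyl diphosphate and lanosterol fell with sgRNA1, where 4.31% of all tested genes fell. FDFT1 (ENSG00000079459, chromosome 8, 11795573 to 11839309), the squalene synthase that commits carbon to sterol, had 74.97 and 72.53 TPM with sgRNA1, 87.89 and 85.79 TPM with sgRNA3 and 128.54 and 115.51 TPM in LACZ. The groups did not overlap and both guides lay well below the control. The log2 changes were -0.72 for sgRNA1 (SE 0.066, limma adjusted p = 0.00813) and -0.48 for sgRNA3 (limma adjusted p = 0.0182). Its sgRNA3 call was lost without any sgRNA3 or LACZ library, and also without the variance trend.

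SQLE, the squalene epoxidase that adds the oxygen of the sterol, had 20.45 and 19.22 TPM with sgRNA1, 27.42 and 26.41 TPM with sgRNA3 and 32.86 and 29.49 TPM in LACZ. LSS, which closes the rings to lanosterol, had 30.28 and 29.48 TPM with sgRNA1, 36.13 and 36.05 TPM with sgRNA3 and 39.34 and 40.15 TPM in LACZ. In both genes the libraries were ordered sgRNA1, sgRNA3, LACZ without overlap. SQLE fell by 0.63 on the log2 scale with sgRNA1 (limma adjusted p = 0.0223) and LSS by 0.40 (limma adjusted p = 0.0280), and with sgRNA3 the log2 changes were -0.20 and -0.14 and did not pass (limma adjusted p = 0.202 and 0.219).

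After lanosterol the genes split. MSMO1 (ENSG00000052802, chromosome 4, 165327623 to 165343160), the oxidase that starts removal of the paired methyl groups, had 49.76 and 50.39 TPM with sgRNA1, 69.48 and 68.03 TPM with sgRNA3 and 85.94 and 82.86 TPM in LACZ. Its replicates were close and its groups far apart, with means of 50.1 ± 0.445 TPM with sgRNA1, 68.8 ± 1.03 TPM with sgRNA3 and 84.4 ± 2.18 TPM in LACZ (SD, n = 2 each). The log2 changes were -0.74 for sgRNA1 (SE 0.051, limma adjusted p = 0.00337) and -0.29 for sgRNA3 (limma adjusted p = 0.0327). The sgRNA3 call was lost with any of the 6 libraries left out and under median-of-ratios scaling. It was also lost with no variance trend, with the replicate number added to the fit and in a fit of only the groups compared.

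CYP51A1, the demethylase that acts on lanosterol and is the human relative of the target of azole antifungals, had 47.65 and 47.18 TPM with sgRNA1, 58.69 and 62.77 TPM with sgRNA3 and 71.3 and 64.26 TPM in LACZ. DHCR7, the reductase whose product is cholesterol itself, had 72.04 and 66.1 TPM with sgRNA1, 87.03 and 90.98 TPM with sgRNA3 and 86.59 and 93.79 TPM in LACZ. The sgRNA3 libraries of DHCR7 lay within the LACZ range, while those of CYP51A1 lay between the other groups. Both genes fell with sgRNA1 (log2 changes -0.50 and -0.38, limma adjusted p = 0.0252 and 0.0441) and neither passed with sgRNA3 (log2 changes -0.15 and -0.02, the second 0.03 under median-of-ratios scaling).

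HSD17B7, a reductase of sterol ketones, was below both LACZ libraries in all 4 guide libraries, at 17.28 and 14.63 TPM with sgRNA1, 15.77 and 15.87 TPM with sgRNA3 and 21.47 and 24.26 TPM in LACZ. It missed the threshold with each guide (log2 change -0.50 in both comparisons, limma adjusted p = 0.0731 with sgRNA1 and 0.0593 with sgRNA3). Its near copy HSD17B7P2, listed at up to 9.31 TPM, may share reads with it. The other enzymes of this stretch did not pass with either guide. NSDHL, which removes a carbon after MSMO1 has acted, had log2 changes of -0.21 with sgRNA1 and -0.18 with sgRNA3. The log2 changes of the sterol reductase TM7SF2 were -0.15 with sgRNA1 and -0.25 with sgRNA3, and those of LBR, a nuclear lamina receptor with the same reductase activity, were -0.11 and -0.04. The isomerase EBP had 59.46 and 67.89 TPM with sgRNA1, 61.74 and 69.62 TPM with sgRNA3 and 57.8 and 56.94 TPM in LACZ, so all 4 guide libraries were above the control. Neither EBP comparison passed (log2 change 0.14 with sgRNA1, limma adjusted p = 0.396, and 0.19 with sgRNA3, 0.251). The log2 change of the desaturase SC5D had a 95% interval of -0.24 to 0.24 with sgRNA1 and of -0.12 to 0.37 with sgRNA3.

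**Figure D2:**
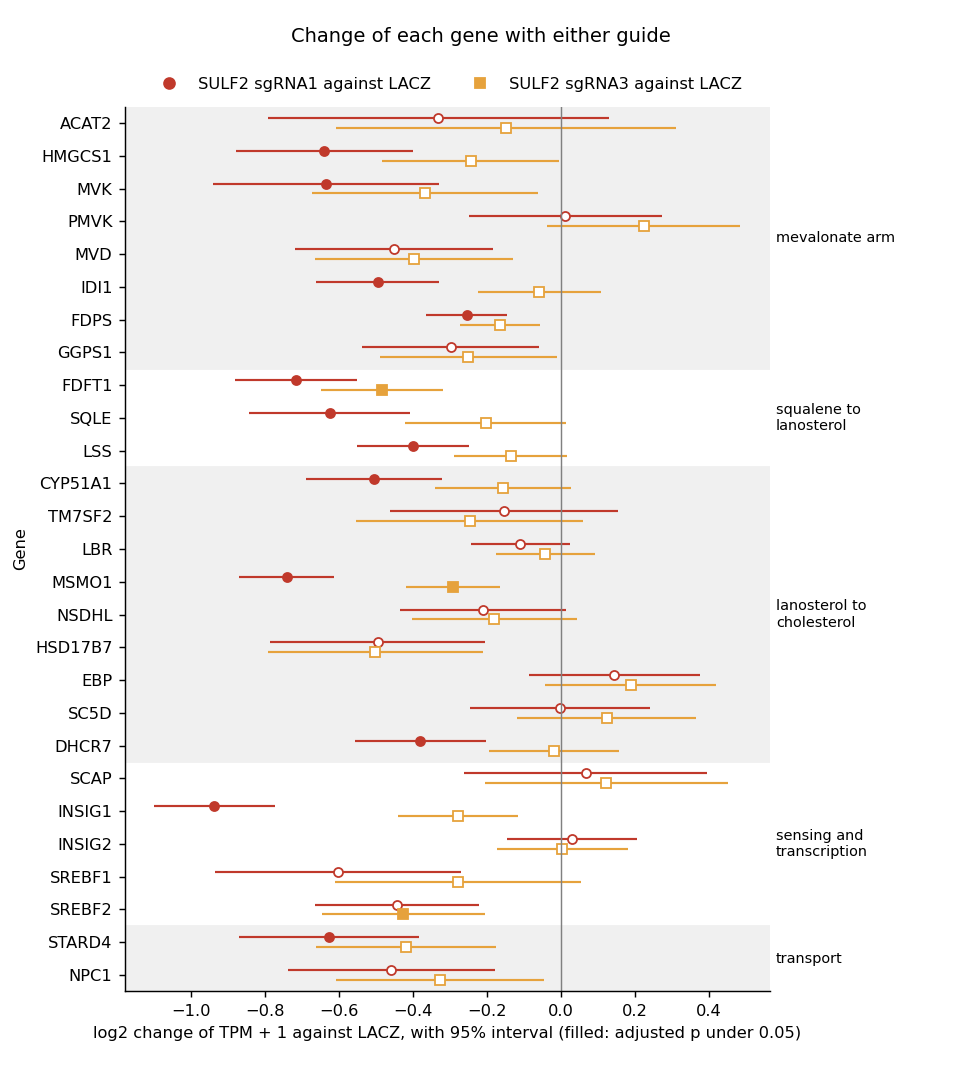
Log2 change of TPM + 1 for each of the 27 genes (x axis) with sgRNA1 (circles) and sgRNA3 (squares), each against LACZ, with bars for the 95% interval, not adjusted for the number of genes. Filled symbols passed a limma adjusted p under 0.05: 12 genes with sgRNA1 and 3 with sgRNA3, all to the left of 0.

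The sterol sensor INSIG1 showed the largest change of the 27 genes, and its paralog INSIG2 did not pass. INSIG1 (ENSG00000186480, chromosome 7, 155297776 to 155310235), which keeps SCAP in the endoplasmic reticulum and is itself an SREBP2 target, had 39.63 and 39.43 TPM with sgRNA1, 61.4 and 64.6 TPM with sgRNA3 and 79.77 and 73.55 TPM in LACZ. The 3 groups were clearly apart, and the sgRNA1 mean was 51.6% of the LACZ mean. The log2 changes were -0.94 for sgRNA1 (SE 0.065, limma adjusted p = 0.00344) and -0.28 for sgRNA3 (limma adjusted p = 0.0605). INSIG2, which performs the same retention but is not under the same sterol control, had 28.19 and 26.61 TPM with sgRNA1, 27.03 and 26.74 TPM with sgRNA3 and 27.08 and 26.51 TPM in LACZ. Its 6 libraries overlapped, and the log2 change was 0.03 with sgRNA1 (95% interval -0.15 to 0.21), while with sgRNA3 its 95% interval ran from -0.17 to 0.18.

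SREBF2, the gene of SREBP2, had 28.81 and 25.07 TPM with sgRNA1, 26.75 and 27.68 TPM with sgRNA3 and 36.48 and 37.33 TPM in LACZ. The guide libraries overlapped each other and all 4 lay below the control. The log2 changes were -0.44 for sgRNA1 (limma adjusted p = 0.0518) and -0.43 for sgRNA3 (limma adjusted p = 0.0465), so that only the sgRNA3 comparison passed, and that call was lost without any sgRNA3 or LACZ library. SREBF1, the gene of the related factor that favours fatty acid synthesis, had 41.15 and 32.68 TPM with sgRNA1, 45.55 and 46.95 TPM with sgRNA3 and 52.02 and 60.82 TPM in LACZ, and did not pass (limma adjusted p = 0.0637 with sgRNA1 and 0.245 with sgRNA3). SCAP, at 16.69 to 21.33 TPM over the LACZ libraries, had log2 changes of 0.07 with sgRNA1 and 0.12 with sgRNA3, with 95% intervals of -0.26 to 0.40 and -0.21 to 0.45.

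Of the cholesterol carriers, STARD4, which moves sterol between membranes, had 11.85 and 13.09 TPM with sgRNA1, 15.12 and 14.01 TPM with sgRNA3 and 19.98 and 19.61 TPM in LACZ. The groups did not overlap. STARD4 fell with sgRNA1 (log2 change -0.63, limma adjusted p = 0.0293) and missed the threshold with sgRNA3 (log2 change -0.42, limma adjusted p = 0.0602). NPC1, which exports cholesterol from lysosomes, had 44.99 and 51.16 TPM with sgRNA1, 49.86 and 55.62 TPM with sgRNA3 and 61.37 and 71.63 TPM in LACZ. All 4 guide libraries of NPC1 were below the control, but neither comparison passed (log2 changes -0.46 and -0.33, limma adjusted p = 0.0791 and 0.133).

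Promoters were read for the sterol and partner motifs, since 12 of the genes fell together with sgRNA1. RefSeq promoters on GRCh38.p14 (250 bases before and 50 after each annotated start) were held for 24 of the 27 genes. ACAT2, FDFT1 and SQLE had no entry and were not searched. The sterol regulatory element was searched as TCACNCCAC, the box of its partner NF-Y as CCAAT and that of its partner Sp1 as GGGCGG, each on both strands. The first lay in 1 of the 24 genes, SREBF2, and in 1.4% of the 27305 genes with a promoter. Other forms of the element were not searched, so a gene without this string may still hold one. CCAAT lay in 17 of 24 (70.8%), against 39.7% of all genes with a promoter and 43.4% of those also tested here, and GGGCGG in 22 of 24 (91.7%), against 48.3% and 75.8%. Among the 10 genes that fell with sgRNA1 and have a promoter entry, CCAAT lay in 9, and among the other 14 in 8. GGGCGG lay in 10 of the 10 and in 12 of the 14, and the sterol element in 0 and 1. These counts describe letters in a fixed window, and genes with several starts had more letters searched.

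The stretches before the first annotated exon (GENCODE 29) are shown for the gene with the largest change, its paralog that did not pass, MSMO1, STARD4 and the only gene with the sterol element. They lie at chr7:155297628-155297775, plus strand (INSIG1), chr2:118088221-118088451, plus strand (INSIG2), chr4:165327419-165327622, plus strand (MSMO1), chr5:111512591-111512785, minus strand (STARD4) and chr22:41832855-41833078, plus strand (SREBF2). None holds an exon in that annotation apart from the SREBF2 stretch, which lies in exons of the antisense RNA SREBF2-AS1. Capitals mark the motifs on either strand, so that CCAAT may read ATTGG and GGGCGG may read CCGCCC.
INSIG1: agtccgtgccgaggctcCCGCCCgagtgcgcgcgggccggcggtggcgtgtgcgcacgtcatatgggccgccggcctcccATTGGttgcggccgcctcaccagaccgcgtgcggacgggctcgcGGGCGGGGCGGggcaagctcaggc
INSIG2: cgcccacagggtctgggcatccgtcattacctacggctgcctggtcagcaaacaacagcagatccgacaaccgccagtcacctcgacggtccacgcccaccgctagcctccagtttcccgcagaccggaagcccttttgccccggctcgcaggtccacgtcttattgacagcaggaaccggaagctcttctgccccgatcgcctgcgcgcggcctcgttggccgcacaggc
MSMO1: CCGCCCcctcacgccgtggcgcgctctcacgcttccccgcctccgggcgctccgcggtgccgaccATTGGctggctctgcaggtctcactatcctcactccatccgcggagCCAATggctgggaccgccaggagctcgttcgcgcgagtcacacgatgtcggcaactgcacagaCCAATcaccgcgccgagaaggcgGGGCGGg
STARD4: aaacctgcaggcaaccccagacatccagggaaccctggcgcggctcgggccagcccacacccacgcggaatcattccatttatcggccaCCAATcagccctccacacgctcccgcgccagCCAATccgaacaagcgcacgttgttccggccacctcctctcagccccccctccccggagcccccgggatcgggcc
SREBF2: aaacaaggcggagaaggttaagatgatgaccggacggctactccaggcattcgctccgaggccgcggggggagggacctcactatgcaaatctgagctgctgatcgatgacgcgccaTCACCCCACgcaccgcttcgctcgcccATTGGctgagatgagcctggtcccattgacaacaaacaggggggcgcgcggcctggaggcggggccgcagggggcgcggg
In the stretches shown, INSIG1 has 1 NF-Y box and 3 Sp1 boxes, of which a pair overlap, and INSIG2 has none of the motifs. There MSMO1 has 3 NF-Y boxes and STARD4 has 2, while SREBF2 carries the sterol element as TCACCCCAC, followed by 1 NF-Y box. These stretches are shorter than the promoters counted above. Past their ends, the promoters of INSIG2 hold an Sp1 box, and those of INSIG1, MSMO1, STARD4 and SREBF2 hold further NF-Y or Sp1 boxes.

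The guides were then compared with each other. LACZ levels do not enter this difference, but the LACZ libraries add to the spread it is tested against. Of the 27 genes, 2 were higher with sgRNA3 than with sgRNA1 and 0 lower, 7.41% of the set, where 0.391% of all tested genes were higher and 0.187% lower. INSIG1 was higher with sgRNA3 by 0.66 on the log2 scale (SE 0.065, limma adjusted p = 0.0343) and MSMO1 by 0.45 (SE 0.051, limma adjusted p = 0.0420). Each of these calls was lost with any of the 6 libraries left out, and without LACZ replicate 1 or 2 the limma adjusted p of INSIG1 was 0.0915 or 0.0910. A fit of the guide libraries alone called 0 of the 27 genes. SULF2 itself did not pass between the guides (log2 difference -0.14, limma adjusted p = 0.754). The difference was positive for 24 of the 27 genes (22 under median-of-ratios scaling and 19 under quantile normalization). As deposited, it was positive for 9447 of the 16610 genes tested. The median of the 27 genes was 0.18, beside 0.04 over all genes tested. Over all genes 65 were higher and 31 lower, a split that moved to 57 and 46 under median-of-ratios scaling, where INSIG1 alone of the 27 passed. Both sgRNA3 libraries lay above both sgRNA1 libraries for 16 of the 27 genes, against 28.2% of all tested genes. Among those that did not pass, IDI1 had a log2 difference of 0.44 (limma adjusted p = 0.0856) and DHCR7 of 0.36 (limma adjusted p = 0.125). For SREBF2 the difference was 0.02, with a 95% interval of -0.20 to 0.24, and for HSD17B7 it was -0.01 (-0.30 to 0.28).

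**Figure D3:**
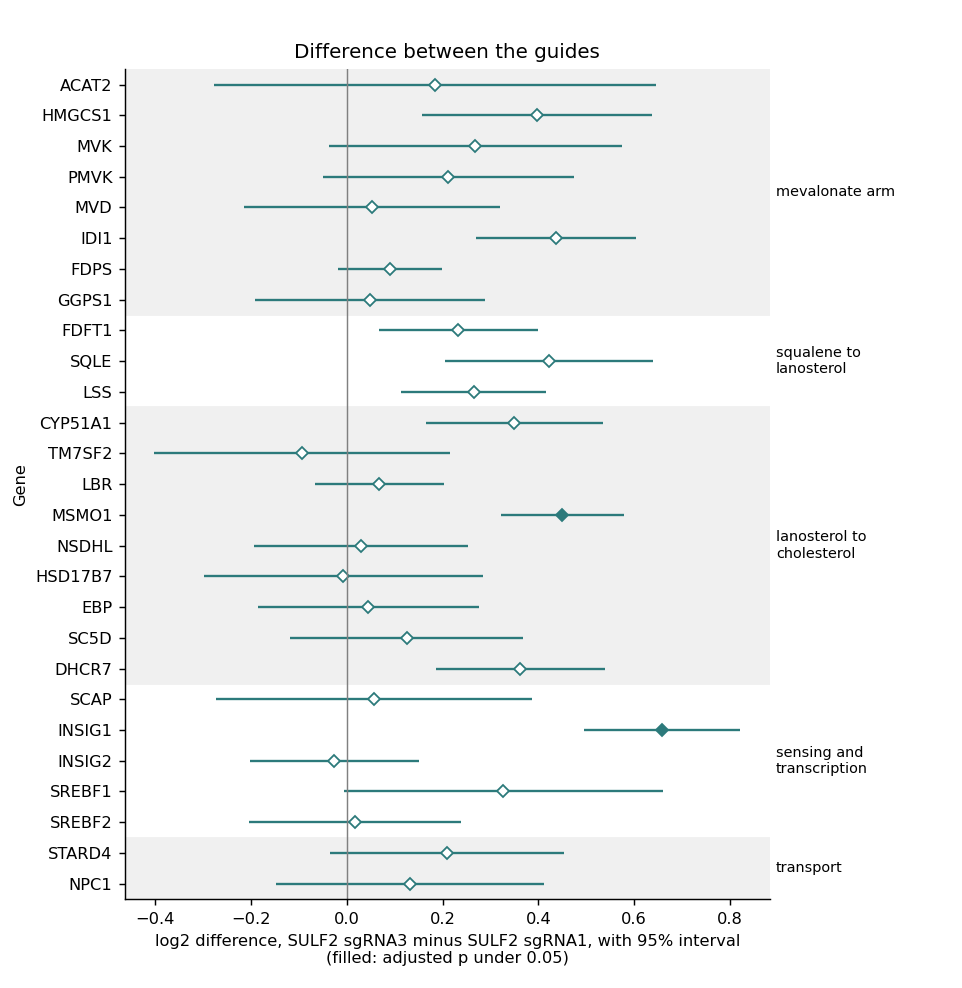
Log2 difference between sgRNA3 and sgRNA1 for each of the 27 genes (x axis, sgRNA3 minus sgRNA1), with bars for the 95% interval, not adjusted for the number of genes. Filled symbols passed a limma adjusted p under 0.05: INSIG1 at 0.66 and MSMO1 at 0.45.

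In 11 of the 27 genes every sgRNA1 library lay below every sgRNA3 library and every sgRNA3 library below every LACZ library, an order found in 6.04% of all tested genes. These were HMGCS1, MVK, FDPS, FDFT1, SQLE, LSS, CYP51A1, MSMO1, INSIG1, SREBF1 and STARD4. The order was looked for after the values were seen.

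Genes around the pathway were described from lists of 58 genes in 5 groups, of which 57 were tested. Of 12 fatty acid genes that SREBP factors also drive, 5 fell with sgRNA1, where 4.31% of all tested genes fell, and 3 fell with sgRNA3, where 5.25% did. With either guide 0 rose, and 7 of 12 with sgRNA1 and 9 of 12 with sgRNA3 did not pass. The median log2 changes were -0.34 with sgRNA1 and -0.17 with sgRNA3, beside -0.07 and -0.05 over all genes, and 4 of the 12 were above 0 with sgRNA3. SCD, which puts the double bond into stearate, had 130.56 and 123.89 TPM with sgRNA1, 180.51 and 176.44 TPM with sgRNA3 and 209.1 and 205.59 TPM in LACZ. It fell with sgRNA1 (log2 change -0.70, limma adjusted p = 0.00262), a call kept with each library left out, and with sgRNA3 (log2 change -0.22, limma adjusted p = 0.0466), a call lost without any of the 6 libraries. With sgRNA1 the fatty acid synthase FASN fell by 0.76, and the desaturases FADS1 and FADS2 fell by 0.49 and 0.38 (limma adjusted p = 0.0296, 0.0261 and 0.0325). The acyl-CoA synthetase ACSL3 fell by 0.31 with each guide, and ACSS2, which makes acetyl-CoA from acetate, fell by 0.61 with sgRNA3, both named after their values were seen. ACSS2 did not pass with sgRNA1, though its levels with the guides were alike. They were 15.13 and 16.96 TPM with sgRNA1, 16.76 and 15.24 TPM with sgRNA3 and 23.04 and 27.01 TPM in LACZ. All of these calls other than that of SCD with sgRNA1 were lost without some libraries.

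The protein machinery that cleaves SREBP precursors or degrades sterol-regulated proteins had a single call with each guide. Of 12 such genes 1 rose with each guide and 0 fell, where 1.69% of all tested genes rose with sgRNA1 and 3.84% with sgRNA3. The median log2 changes were 0.08 with sgRNA1 and 0.22 with sgRNA3. The gene that rose was VCP, the ATPase that pulls proteins out of the endoplasmic reticulum membrane, with 126.89 and 117.95 TPM with sgRNA1, 123.82 and 133.88 TPM with sgRNA3 and 93.38 and 92.49 TPM in LACZ. Its log2 change was 0.39 with sgRNA1 and 0.47 with sgRNA3 (limma adjusted p = 0.0305 and 0.0172). ERLIN1 and UFD1, which take part in sterol-controlled degradation, did not pass, with log2 changes of 0.26 for ERLIN1 and 0.41 for UFD1 with sgRNA3 (limma adjusted p = 0.0502 and 0.0588). RNF139, a ubiquitin ligase of the endoplasmic reticulum named here after its values were seen, had log2 changes of 0.51 with sgRNA1 (limma adjusted p = 0.0805) and 0.41 with sgRNA3 (limma adjusted p = 0.105) and did not pass.

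Among 14 genes of the isoprenoid branch, 1 rose with sgRNA1 and 2 with sgRNA3, where 1.69% and 3.84% of all tested genes rose, and 0 fell. The median log2 changes were 0.10 with sgRNA1 and 0.20 with sgRNA3. ICMT, which methylates prenylated proteins such as RAS, had 96.21 and 96.22 TPM with sgRNA1, 103.4 and 101.11 TPM with sgRNA3 and 74.23 and 70.09 TPM in LACZ. It rose with sgRNA1 (log2 change 0.41, limma adjusted p = 0.0168) and with sgRNA3 (log2 change 0.50, limma adjusted p = 0.00969). PDSS1, which builds the tail of coenzyme Q, rose by 0.73 with sgRNA3 (limma adjusted p = 0.0407) and did not pass with sgRNA1. Its levels were 20 and 16.93 TPM with sgRNA1, 17.92 and 22.26 TPM with sgRNA3 and 11.9 and 11.41 TPM in LACZ. RABGGTB and FNTA, subunits of prenyltransferases, had log2 changes of -0.37 and -0.30 with sgRNA1 and did not pass (limma adjusted p = 0.0580 and 0.0827). The VCP, ICMT and PDSS1 calls were each lost without some libraries.

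Among genes of sterol efflux and storage, 0 were called with sgRNA1, where 4.31% of all tested genes fell and 1.69% rose. Calls were made with sgRNA3, where 5.25% of all tested genes fell and 3.84% rose. Of 6 genes of the LXR receptors and their efflux targets, the lipid transporter ABCA7 fell with sgRNA3 (log2 change -0.84, limma adjusted p = 0.0433). ABCA1, MYLIP and NR1H3 did not pass, with log2 changes of 0.23 for ABCA1 with sgRNA3 and of -0.22 and -0.22 for MYLIP and NR1H3 with sgRNA1. Of 13 tested genes of storage, uptake and intracellular transport, GRAMD1A, which carries sterol at membrane contacts, fell with sgRNA3 (log2 change -0.56, limma adjusted p = 0.0241), and the cholesteryl ester hydrolase NCEH1 rose with it (log2 change 0.27, limma adjusted p = 0.0306). With sgRNA1, OSBPL2 had a log2 change of -0.41 (limma adjusted p = 0.0626) and GRAMD1B of 0.67 (limma adjusted p = 0.116), and neither passed. The ABCA7 and GRAMD1A calls were lost without any sgRNA3 or LACZ library, and that of NCEH1 without any of the 6.

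**Figure D4:**
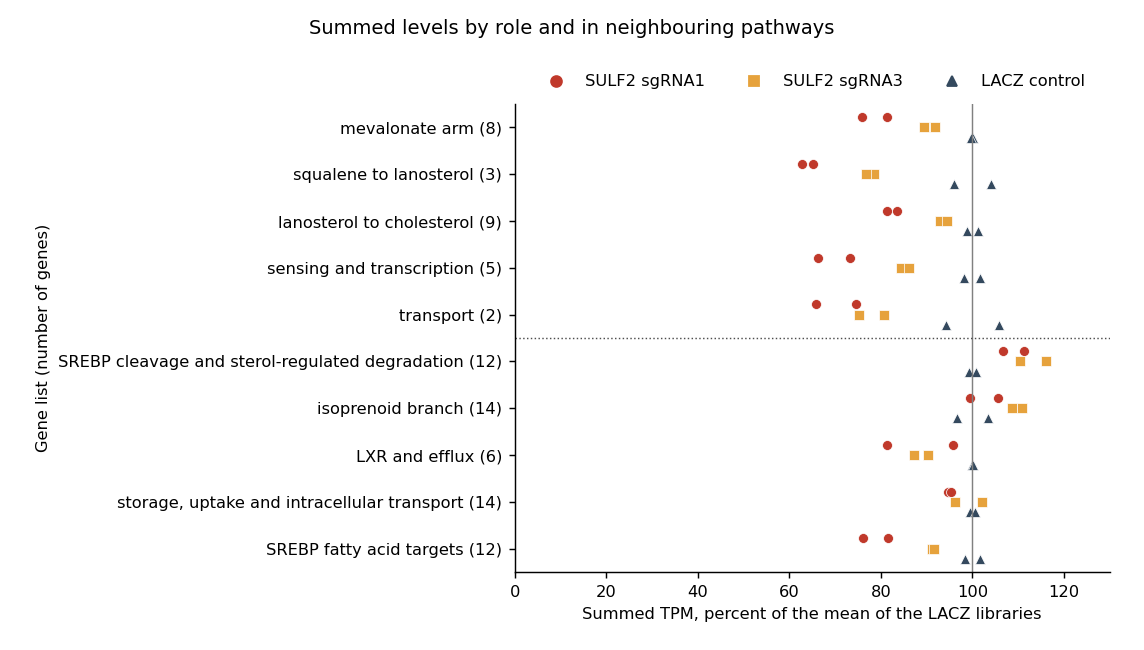
Summed TPM of each gene list in each library, as a percent of the mean of the LACZ libraries (x axis), with the number of genes in brackets. Circles are sgRNA1, squares sgRNA3 and triangles LACZ libraries. Above the dotted line stand the 5 role groups of the 27 genes, where squalene to lanosterol is lowest with sgRNA1 at 62.8% to 65.1%, and below it neighbouring lists, where SREBP cleavage and degradation lies above 100 with both guides.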

How the data were processed

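RNA-seq libraries of CFPAC-1 cells were deposited as a table of TPM values per gene and library, made by the authors and rounded to 2 decimals. The build GRCh38 and the tools RSEM 1.3.1, HISAT2 2.1.0 and DESeq2 1.24.0 are listed, with no roles, per the submitters' processing notes. TPM keeps no depth, so the depth per library is unknown and DESeq2 was not used. The table writes H where the sample titles write S, and its columns were assigned by the guide number after that letter.

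Values were analysed as log2(TPM + 1), which understates changes of low genes, for genes with a TPM of at least 1 in at least 2 libraries. The 3 groups entered a single limma 3.58.1 fit (R 4.3.3) with an intensity trend and no covariate. Simulated data served to check the sign and mean size of its estimates, with no requirement set on its rate of false calls. The fit left 3 residual degrees of freedom, to which limma's prior added 2.34. P-values are two-sided, with Benjamini-Hochberg adjustment over all 16610 genes. An exact permutation test of 2 libraries against 2 cannot go below p = 0.333, so none is given. No label says that libraries came from separate cultures, so the p-values rest on a spread between libraries that may be technical.

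The members, gene lists and naming rule (all 27 members, up to 4 genes per neighbouring list by smallest p) were chosen with earlier results of these data known. MARCHF6 was matched by gene identifier. A gene that the naming rule picked is not reported here. Positions come from GENCODE 29 and promoter sequences from RefSeq (GRCh38.p14).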

Additional observations from a re-analysis of the deposited data

Results flagged for a closer look

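INSIG1 and MSMO1 were picked out because their change against LACZ differed between the guides, by a test of sgRNA3 against sgRNA1. INSIG1 had 61.4 and 64.6 TPM with sgRNA3 and 39.63 and 39.43 TPM with sgRNA1, a log2 difference of 0.66 (limma adjusted p = 0.0343). MSMO1 had 69.48 and 68.03 TPM with sgRNA3 and 49.76 and 50.39 TPM with sgRNA1, a log2 difference of 0.45 (limma adjusted p = 0.0420). The fatty acid desaturase gene SCD was picked out in the same way, with 180.51 and 176.44 TPM with sgRNA3 and 130.56 and 123.89 TPM with sgRNA1, a log2 difference of 0.49 (limma adjusted p = 0.0287). All 3 differences lost their call with any of the 6 libraries left out, and SULF2 itself did not pass between the guides (limma adjusted p = 0.754).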

How the results depend on the processing

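In every setting tried, 0 of the 27 cholesterol genes were called higher with either guide against LACZ, and the counts of lower genes depended on the settings. Against 12 genes lower with sgRNA1 as deposited, 7 were called with no filter, 7 under the replicate block, 3 in the fit of the compared groups alone and 3 with no variance trend. The 3 lower with sgRNA3 became 6 at a TPM of at least 5, 0 with no trend and 1 under the block. At a TPM of at least 5, where fewer genes were tested, 1021 of all genes fell with sgRNA3, against 872 as deposited. The 2 lower with both guides became 6 at a TPM of at least 5, 0 with no trend, 1 under the block and 1 with only the groups compared, and setting the mean of both guides against LACZ gave 14. The 2 higher with sgRNA3 than with sgRNA1 became 1 under median-of-ratios scaling, 1 under quantile normalization and 0 in the other fits that moved. With each library left out in turn the counts ran from 2 to 3, from 0 to 2, from 0 to 0 and from 0 to 0. With no adjustment, 18, 12 and 9 of the 27 genes passed a limma p under 0.05 with sgRNA1, with sgRNA3 and between the guides. For these counts, for those of both guides in the altered settings and for that of their mean, no share of all tested genes was taken. They therefore show nothing particular to the set. Where 1 library was left in a group, its spread was taken from the other groups.

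Over all genes, the higher and lower counts against LACZ as deposited were 281 and 716 with sgRNA1 and 637 and 872 with sgRNA3, and 65 and 31 between the guides. They became 146 and 396, 345 and 440, and 0 and 0 with no filter, 62 and 233, 180 and 377, and 7 and 5 with no trend, 91 and 286, 252 and 309, and 0 and 0 under the replicate block, and 63 and 248, 361 and 472, and 1 and 1 with only the groups compared. Median-of-ratios scaling gave 610 higher with sgRNA1 and 1020 with sgRNA3, and quantile normalization 442 with sgRNA1. With libraries left out they ran from 30 to 79 and 120 to 268, from 76 to 370 and 107 to 482, and from 0 to 24 and 0 to 6. Over all genes tested, deviations of same-numbered libraries correlated at -0.031 (sgRNA1 and sgRNA3), -0.018 (sgRNA1 and LACZ) and 0.0061 (sgRNA3 and LACZ). These values show no strong shift shared by replicate number. With 2 libraries per group they cannot tell whether same-numbered libraries were made together.

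No called value changed sign. Values with no call near 0 did so 37 times. Under median-of-ratios scaling the log2 changes were 0.080 for SC5D with sgRNA1, 0.0071 for LBR and 0.031 for DHCR7 with sgRNA3, and -0.0026 for NSDHL and -0.016 for SREBF2 between the guides. Quantile normalization gave 0.076 for SC5D with sgRNA1, and between the guides -0.0011 for MVD, -0.0065 for GGPS1, -0.020 for NSDHL, -0.0092 for EBP and -0.037 for SREBF2. With libraries left out, log2 changes with sgRNA1 ran from -0.079 to 0.10 for PMVK, -0.0096 to 0.071 for INSIG2, -0.11 to 0.10 for SC5D and -0.10 to 0.24 for SCAP. With sgRNA3 they ran from -0.38 to 0.081 for ACAT2, -0.075 to 0.039 for DHCR7, -0.010 to 0.020 for INSIG2, -0.087 to 0.0033 for LBR, -0.14 to 0.018 for IDI1 and -0.044 to 0.29 for SCAP. Between the guides they ran from -0.24 to 0.052 for TM7SF2, -0.12 to 0.11 for HSD17B7, -0.050 to 0.14 for EBP, -0.066 to 0.014 for INSIG2, -0.072 to 0.18 for MVD, -0.050 to 0.15 for GGPS1, -0.080 to 0.11 for SREBF2, -0.046 to 0.41 for ACAT2 and -0.027 to 0.087 for NSDHL. The causes were not tested, apart from the fewer libraries of some fits. Settings for SULF2 and the genes around the pathway were added after the data were seen. Because TPM keeps no depth, no counting error could be set beside any value.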
